A study of Mus musculus with 16 samples.

Results

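The mast cell and basophil genes described here were 10 of the 22298 genes counted and were chosen by name. They comprised the 5 granule proteases Cpa3, Cma1, Mcpt4, Tpsb2 and Tpsab1, the chains Fcer1a and Ms4a2 of the IgE receptor FcεRI, and Kit (the receptor for stem cell factor), Hdc (histidine decarboxylase, which makes histamine) and Gata2 (a zinc finger transcription factor of the mast cell and basophil lineage). Bulk RNA-seq had been carried out on 8 tumors of the vehicle group, which received PBS, and 8 tumors of the IL-33 treatment group. All 16 tumors were wild type and came from mice of 1 inbred line in which MFC cells, a murine gastric cancer line, had been placed in the peritoneal cavity. The mice were 6 weeks old, and IL-33 had been given i.p. at 20 μg/kg every other day. Animals were sex-matched and of either sex, and the sex of each mouse was not in the labels. The model is 1 carcinoma line in 1 strain, and a tumor taken from the abdomen can carry host tissue with it. Each library was labelled as a separate tumor, and p-values measure only the spread between these samples, which may be partly technical. How many mice gave the 8 tumors of a group is not given in the sources used here, and some experiments of the study in this model used fewer mice per group than that, so tumors may share a mouse, and p-values would then be too small.

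Mast cells and basophils are rare immune cells that carry granules of histamine and, in mast cells, of proteases bound to heparin. Both carry the high-affinity receptor for IgE, FcεRI, and mast cells depend on the receptor tyrosine kinase Kit and its ligand, stem cell factor. In mice, connective tissue mast cells, the kind found in the peritoneal cavity, skin and serosal surfaces, are known for the granule proteases carboxypeptidase A3 (Cpa3), the chymases Cma1 and Mcpt4 and the tryptases Tpsb2 and Tpsab1. Mucosal mast cells are known instead for Mcpt1 and Mcpt2, and basophils for Mcpt8. Mast cells also carry ST2, the IL-33 receptor encoded by Il1rl1, so their transcripts were described here next to that of the receptor.

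Total counts were 14139268 to 24290794 over vehicle tumors and 16569613 to 24288893 over IL-33 tumors. Levels are given below as CPM, the gene's counts scaled to the total count of that tumor. One library stood apart by the genes for which it was highest. IL-33 replicate 7 held the highest CPM of the 16 tumors for 43.0% of the 16817 genes tested. The summed CPM of 15 genes of the female reproductive tract was 2228 there and 10.2 at most elsewhere. The same library was also highest for 7 of 7 endothelial genes, whose summed CPM was 1026 there and 277 at most elsewhere, and for 8 of 9 mesothelial and fat genes. Of the epithelial genes, Krt8 and Krt19 were abundant throughout, whereas Epcam had 1734 counts there and at most 41 in the other tumors, so this marker of carcinoma cells was nearly absent from 15 of 16 tumors. Vehicle replicate 7 had the highest CPM for 3.95% of genes. Results are therefore given with and without each of these tumors numbered 7, and the part of other tissues in the levels of IL-33 replicate 7 was not tested. Vehicle replicate 4 stood apart in its scaling. Its TMM factor, by which edgeR adjusts the total count, was 0.640, against 0.895 to 1.24 in the other 15 tumors. It also had the fewest genes with a count, 14701. CPM on total counts, as given below, are lower for this tumor than TMM-scaled CPM would be. In bulk tumor RNA, fewer cells of a type and less RNA per cell cannot be told apart.

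Upstream sequence is shown first for 5 of the 7 members whose highest tumor was vehicle replicate 7, since these genes shared that pattern; the other 2, Tpsb2 and Tpsab1, had no record in the promoter table used here. Each is written 5′ to 3′ on the strand of its gene, from RefSeq on GRCm38.p6, and ends at the last base before the outermost start annotated for that gene. Capitals mark matches to the words bound by GATA factors, AGATAA as well as AGATAG, and TGATAA as well as TGATAG, on either strand.
Cpa3, chr3:20242210-20242431, minus strand: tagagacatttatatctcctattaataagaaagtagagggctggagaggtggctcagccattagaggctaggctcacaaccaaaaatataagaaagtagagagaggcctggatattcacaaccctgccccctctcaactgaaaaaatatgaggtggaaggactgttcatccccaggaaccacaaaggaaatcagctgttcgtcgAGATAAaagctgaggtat
Cma1, chr14:55944676-55944925, minus strand: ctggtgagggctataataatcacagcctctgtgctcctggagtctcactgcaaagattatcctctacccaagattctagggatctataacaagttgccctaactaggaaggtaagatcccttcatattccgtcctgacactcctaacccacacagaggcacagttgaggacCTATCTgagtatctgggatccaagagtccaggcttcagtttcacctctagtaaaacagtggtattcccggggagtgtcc
Mcpt4, chr14:56062314-56062560, minus strand: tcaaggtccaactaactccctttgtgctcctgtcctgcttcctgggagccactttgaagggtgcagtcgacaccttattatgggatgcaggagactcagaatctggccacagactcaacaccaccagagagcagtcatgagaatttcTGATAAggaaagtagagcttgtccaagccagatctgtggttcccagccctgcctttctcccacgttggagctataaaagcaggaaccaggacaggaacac
Fcer1a, chr1:173227233-173227479, minus strand: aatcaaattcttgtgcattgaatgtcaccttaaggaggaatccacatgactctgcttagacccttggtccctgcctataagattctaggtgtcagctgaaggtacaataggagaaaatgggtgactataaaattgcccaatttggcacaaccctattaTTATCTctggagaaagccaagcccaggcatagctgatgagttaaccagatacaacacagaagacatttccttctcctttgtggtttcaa
Ms4a2, chr19:11623791-11623969, minus strand: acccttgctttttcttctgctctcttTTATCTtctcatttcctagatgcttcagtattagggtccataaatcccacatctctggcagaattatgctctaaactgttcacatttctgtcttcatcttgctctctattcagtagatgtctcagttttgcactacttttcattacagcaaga

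A GATA word was present in the full 250 bases before the start in all 5 of these genes. Cpa3, Cma1, Mcpt4 and Fcer1a each held 1 match and Ms4a2 held 3, of which 1 lies in the stretch shown. Such a word was present in 26.5% of the 32851 mouse promoter windows of this length, and Hdc held 1 match, while the windows of Kit and Gata2 held none. A match is a description of these letters and not a binding site. The E-box words CACATG as well as CACGTG, which MITF can bind, were in 17.6% of all windows and in the window of Fcer1a alone among the 8 members with a record.

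The genes lie on several chromosomes of GRCm38. The chymases Cma1 (chr14:55941451-55944675) and Mcpt4 (chr14:56059629-56062313) lie on the minus strand in the mast cell chymase cluster. The tryptases Tpsab1 (chr17:25343245-25345562) and Tpsb2 (chr17:25366305-25369098) lie close together on opposite strands. Cpa3 is at chr3:20215620-20242181, Fcer1a at chr1:173221284-173227214, Ms4a2 at chr19:11615523-11623719, Kit at chr5:75574916-75656722, Hdc at chr2:126593667-126619299 and Gata2 at chr6:88193891-88207032. RefSeq lists Tpsab1 as a transcribed pseudogene in its reference strain and GENCODE lists it as protein coding. The closest pair of tryptase transcripts was 76.5% identical over 992 aligned bases, with no run longer than 39 bases in common and no shared window of 100 bases. The closest pair of Cma1 and Mcpt4 transcripts was 70.4% identical. None of the 10 members overlapped another gene on either strand, apart from Cpa3, which contains the microRNA gene Mir7007.

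All 10 members were detected, most of them at low levels. Compared per length, as the median CPM per kilobase of exon over the 16 tumors, Hdc was the highest member at 2.01. The proteases followed at 1.72 for Cma1, 1.52 for Tpsab1, 1.39 for Mcpt4, 1.21 for Tpsb2 and 1.11 for Cpa3. Neighbors in this order were not separated by their spread, since the first of each pair was the higher in between 5 and 12 of the 16 tumors. Below Cpa3 came a step, to 0.363 for Kit, and Cpa3 was above Kit per length in 14 of 16 tumors. Fcer1a at 0.277 and Gata2 at 0.233 came next. Ms4a2, the β chain of FcεRI, was lowest at 0.0194. It had 32 counts in all, at least 1 count in 10 of 16 tumors and more than 3 counts in 4, so its values carry little information. The other members had counts in 16 tumors each, or in 15 for Mcpt4 and Fcer1a. IL-33 replicate 6 had no count for either of these, and a count of 0 there allows up to 0.162 CPM.

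For none of the 5 granule proteases was the difference between vehicle and IL-33 tumors larger than the spread within the groups, and 1 tumor of each group dominated the values. Mcpt4, a chymase of connective tissue mast cells, had a median of 1.14 CPM over vehicle tumors, with 0.185 as the lowest and 25.6 as the highest value. Over IL-33 tumors its median was 2.57 CPM, with 0 as the lowest and 7.92 as the highest. The groups overlapped, and the highest value of each was its replicate 7. Outside these tumors Mcpt4 reached 5.90 CPM at most. The fitted log2 fold change, IL-33 over vehicle, was -0.58 ± 1.00 (SE), with an edgeR adjusted p = 0.895.

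Tpsb2, the tryptase mMCP-6, had a median of 1.67 CPM over vehicle tumors (0.424 to 28.6) and of 2.48 CPM over IL-33 tumors (0.110 to 13.3). Tpsab1, the tryptase mMCP-7, had a median of 2.89 CPM over vehicle tumors (0.679 to 33.8) and of 3.85 CPM over IL-33 tumors (0.595 to 14.1). In both tryptases the treated tumors had the higher median and the vehicle tumors the higher maximum. The fitted log2 fold changes were -0.83 ± 0.90 for Tpsb2 and -0.66 ± 0.74 for Tpsab1.

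Cma1, the chymase mMCP-5, had nearly the same median in both groups, 1.87 and 1.86 CPM. Its vehicle tumors ran from 0.424 to 17.4 CPM and its IL-33 tumors from 0.0541 to 11.6 CPM. Cpa3, the mast cell carboxypeptidase, had medians of 1.38 CPM (0.212 to 15.7, vehicle) and 2.35 CPM (0.379 to 8.43, IL-33). The groups overlapped throughout for both genes, and the log2 fold changes were -0.57 ± 0.87 for Cma1 and -0.33 ± 0.78 for Cpa3.

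**Figure D1:**
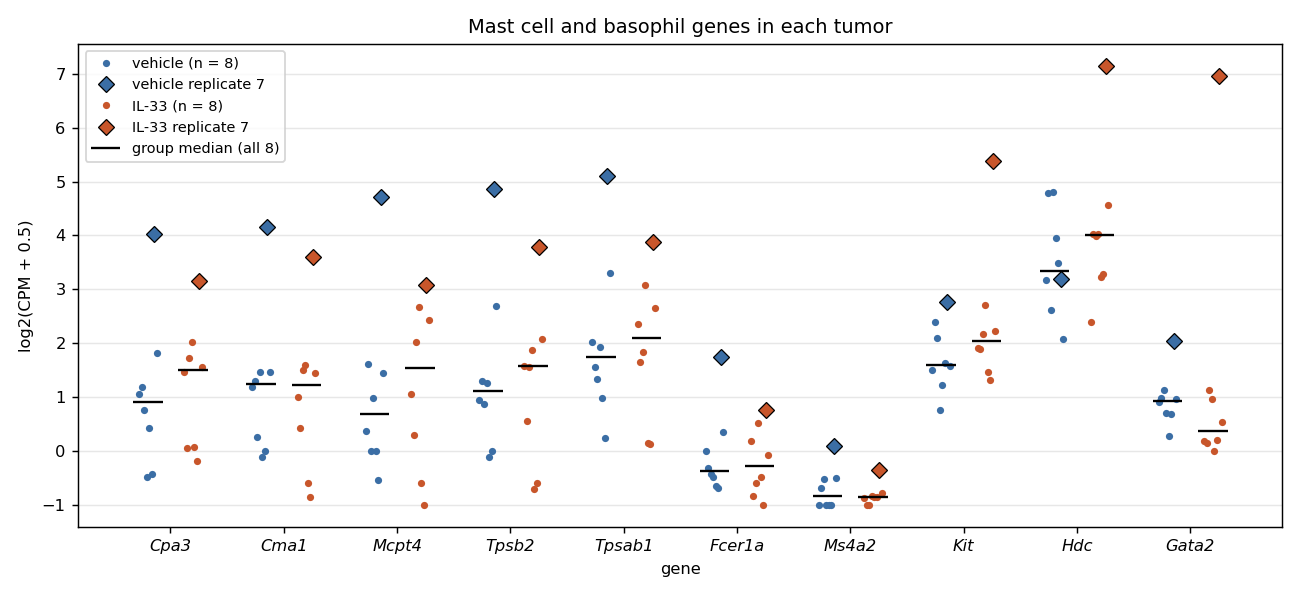
Each point is 1 tumor, as log2(CPM + 0.5) on the vertical axis, for the 10 genes on the horizontal axis; blue is vehicle, orange is IL-33, diamonds are replicate 7 of each group and bars are medians of all 8 tumors. Vehicle replicate 7 is the highest tumor for the 7 genes from Cpa3 to Ms4a2 and IL-33 replicate 7 for Kit, Hdc and Gata2.

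Vehicle replicate 7 was the highest of the 16 tumors for 7 of the 10 members, against 3.95% of all genes tested. These 7 were the 5 proteases, Fcer1a and Ms4a2, and in each of them IL-33 replicate 7 was second. In vehicle replicate 7 the counts were 592 for Tpsab1, 500 for Tpsb2, 448 for Mcpt4, 305 for Cma1 and 275 for Cpa3. That tumor held 60.8% of all Cpa3 counts of the vehicle group and 74.5% of its Mcpt4 counts. Counting error was small beside these differences, with a 95% Clopper-Pearson interval for Mcpt4 of 23.3 to 28.1 CPM there and of 6.66 to 9.35 CPM in the IL-33 tumor of the same number. Such intervals cover counting error only.

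The 5 proteases summed to 121 CPM in vehicle replicate 7, to 55.3 CPM in IL-33 replicate 7 and to between 1.19 and 23.1 CPM in the other 14 tumors. Other tissues were represented unequally in these 2 tumors. Markers of fat were close to 0 in vehicle replicate 7, with 2 counts of Adipoq and 1 of Plin1, and abundant in IL-33 replicate 7, with 4440 and 1807 counts. The summed CPM of the 15 genes of the female reproductive tract was 8.40 in vehicle replicate 7, within the range of the other tumors. The endothelial sum was 277 there, above the 102 to 226 of the 14 tumors with other numbers. The part of endothelium in the protease level of vehicle replicate 7 was not tested.

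The share of each protease in the pool was examined in the 11 tumors with at least 100 protease counts. Shares were taken of the summed protease level per length, in CPM per kilobase of exon, and not of the summed CPM given above. Tpsb2 made up 12.5% to 26.0% of it, Tpsab1 14.3% to 31.5%, Cma1 14.5% to 32.7% and Mcpt4 11.9% to 33.7%. Cpa3 had the widest range as a ratio, from 2.21% in vehicle replicate 4 to 21.3%. Mcpt4 made up 27.7% in vehicle replicate 7 against 18.6% in IL-33 replicate 7, and Cma1 made up 19.1% against 27.6%.

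The group difference of the protease sum turned with these tumors. The IL-33 mean was 0.719 times the vehicle mean over all 16 tumors (16.6 ± 17.5 against 23.1 ± 40.2 CPM, SD, n = 8 each). It was 0.479 times without IL-33 replicate 7, 1.83 times without vehicle replicate 7 and 1.22 times without both. The group medians, 13.4 and 9.17 CPM, had a ratio of 1.46.

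The FcεRI chains were at lower levels per length than the proteases, and their highest tumors, the replicates 7, were the same. Fcer1a, the α chain that binds IgE, had a median of 0.277 CPM over vehicle tumors (0.123 to 2.86) and of 0.336 CPM over IL-33 tumors (0 to 1.20), and the groups overlapped. Its log2 fold change was -0.61 ± 0.81. Ms4a2 reached 0.572 CPM in vehicle replicate 7 (10 counts) and 0.285 CPM in the IL-33 tumor of that number (5 counts), and its log2 fold change was -0.96 ± 0.98.

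Kit, Hdc and Gata2 had another pattern, with IL-33 replicate 7 the highest tumor in each. For 43.0% of all genes this was the highest tumor, a larger share than 3 of 10 members. Gata2 was at 123 CPM in that tumor (95% Clopper-Pearson interval 118 to 129) and between 0.494 and 3.60 CPM in the other 15. The other IL-33 tumors were at 0.494 to 1.69 CPM, and the vehicle tumors were at 0.706 to 3.60 CPM with a median of 1.41. Among the other 15 tumors vehicle replicate 7 was the highest for Gata2. IL-33 replicate 7 was also the highest tumor for 7 of 7 endothelial and 15 of 15 female tract genes. The part of these tissues in its Gata2 level was not tested.

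Kit, the stem cell factor receptor, was at 41.2 CPM in IL-33 replicate 7 and second highest, at 6.29 CPM, in vehicle replicate 7. Its median was 2.53 CPM over vehicle tumors, the lowest being 1.20, and 3.63 CPM over IL-33 tumors, the lowest being 2.00. Kit is also known from interstitial cells of Cajal, melanocytes and germ cells. Tyr and Tyrp1 of melanocytes had no count in any tumor, and the summed CPM of 7 genes of Cajal cells and melanocytes was 101 in IL-33 replicate 7, inside the 56.7 to 209 of the 14 tumors with other numbers. Of these 7, Ano1 of Cajal cells (82.9 CPM) and Dct of melanocytes (14 counts, against 1 at most elsewhere) were highest in IL-33 replicate 7. The oocyte genes Gdf9 and Zp3 had 309 and 182 counts there, against at most 20 and 1 elsewhere. The part of these cells in the Kit level was not tested.

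Hdc was at 141 CPM in IL-33 replicate 7. Its other high tumors were not those of the proteases. It reached 27.4 CPM in vehicle replicate 4 and 27.3 CPM in vehicle replicate 2, and it was at 8.63 CPM in vehicle replicate 7, below its median of 12.9 CPM over the 14 tumors with other numbers. Its median was 9.65 CPM over vehicle tumors, with 3.75 as the lowest, and 15.5 CPM over IL-33 tumors, with 4.73 as the lowest. Vehicle replicate 4 also had the highest summed CPM of 8 neutrophil genes, 472, against 192 at most elsewhere. The 192 was in IL-33 replicate 2, where Hdc was at 15.9 CPM. In IL-33 replicate 7 the neutrophil sum was 76.8, below the median of 101 over the 14 tumors with other numbers. Hdc is known from neutrophils and other myeloid cells as well as from mast cells and basophils, and their part in these levels was not tested.

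Counts of these genes per count of Cpa3 varied widely. There were 0.4 counts of Kit per count of Cpa3 in vehicle replicate 7, 4.89 in IL-33 replicate 7 and 10.5 in vehicle replicate 6. For Hdc the ratio ran from 0.549 in vehicle replicate 7 to 129 in vehicle replicate 4, where Cpa3 had 3 counts.

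In the comparison of all 16 tumors by the quasi-likelihood test of edgeR, 0 of 16817 genes (0.0%) were called at an adjusted p under 0.05, and the lowest edgeR adjusted p was 0.418. Without adjustment 1680 genes were higher and 196 lower at p under 0.05. DESeq2 also called 0 genes. Read at an unadjusted p under 0.05, 2 members were higher with IL-33 and 0 were lower, beside 9.99% of all genes higher and 1.17% lower. The 2 were Gata2, with a log2 fold change of 3.04 ± 1.14 (edgeR adjusted p = 0.418), and Kit, with 1.19 ± 0.55 (edgeR adjusted p = 0.435). Hdc was at 0.78 ± 0.63. The median log2 fold change was -0.57 over the members and 0.06 over all genes tested.

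These 2 calls rested on IL-33 replicate 7. Without it Gata2 was at -0.80 ± 0.35, past the unadjusted threshold in the opposite direction, and Kit at 0.15 ± 0.29. Kit was also short of the unadjusted threshold, at 1.08 to 1.24, when any 1 of vehicle replicates 1, 3, 4, 5, 6 and 8 was left out. Without IL-33 replicate 7 the members counted 0 higher and 1 lower, beside 1.83% and 2.29% of all genes. Without both replicates 7, Gata2 was at -0.55 ± 0.32 and 0 members were past the unadjusted threshold, beside 3.06% of all genes higher and 2.37% lower.

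Methods that weigh single counts or libraries less moved the same 2 genes. DESeq2, which by default replaces outlying counts in groups of this size, put Gata2 at -0.77 ± 0.36 and Kit at 0.12 ± 0.29 over all 16 tumors. It counted 0 members higher and 1 lower, Gata2, beside 2.52% and 1.59% of all genes. With limma voom and sample quality weights 0 members were higher and 0 lower, beside 3.07% and 2.69% of all genes.

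Leaving out vehicle replicate 7 turned the sign of 6 of the 7 genes led by that tumor. Mcpt4 went to 1.14 ± 0.87 and Cpa3 to 0.91 ± 0.64, while Ms4a2 stayed below 0, at -0.19 ± 0.96. None of the 7 was past the unadjusted threshold. Gata2 and Kit remained higher there, so that the members counted 2 higher and 0 lower, beside 10.1% and 1.34% of all genes.

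**Figure D2:**
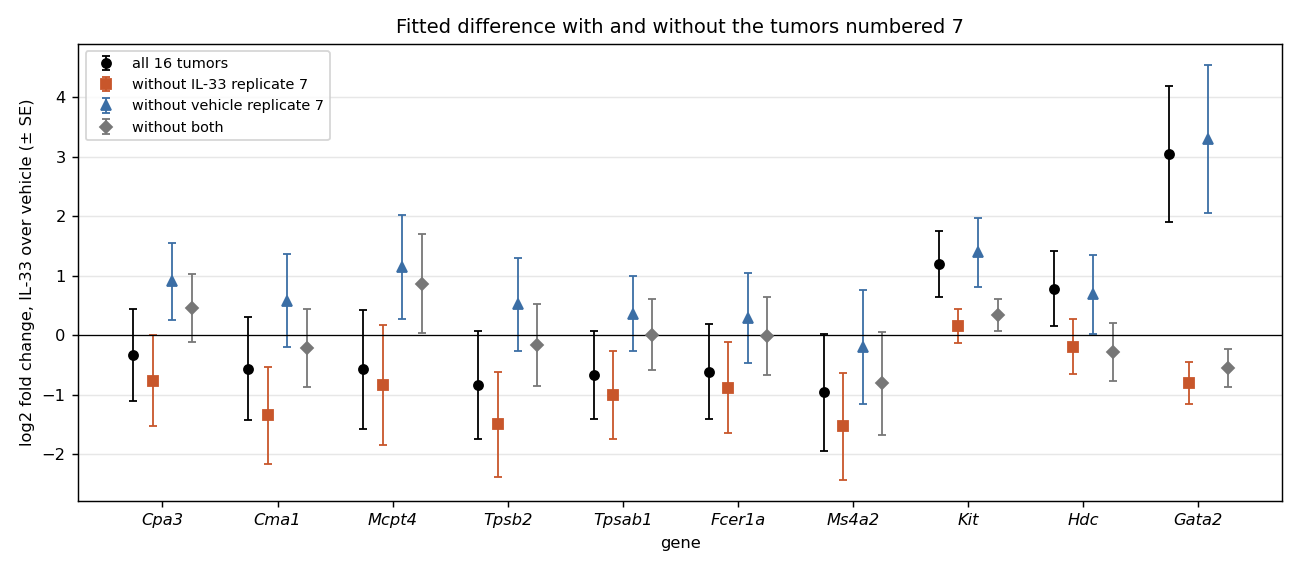
Fitted log2 fold change, IL-33 over vehicle, on the vertical axis for each gene on the horizontal axis. Bars are the approximate SE computed from the F statistic. Fits are over all 16 tumors and without 1 or both of the tumors numbered 7. Leaving out IL-33 replicate 7 takes Gata2 from 3.04 to -0.80 and leaving out vehicle replicate 7 takes Mcpt4 from -0.58 to 1.14.

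An exact permutation test of the difference in mean log2(CPM + 0.5), two-sided over all assignments of 8 and 8 tumors, gave a p under 0.05 for 0 of the 10 members. The smallest p that this test can give is 0.000155. Kit had the lowest exact permutation p, 0.237, with a difference of 0.64 and 6 of 8 IL-33 tumors higher than the mean of the vehicle group. Gata2 differed by 0.30 (exact permutation p = 0.975), with 3 of 8 IL-33 tumors higher than that mean. No member separated the groups without overlap, and neither did any gene tested (0.0% in either direction). Among the alternatives run with this permutation test, the smallest p of a member was that of Gata2 without IL-33 replicate 7, 0.0550.

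The spread between tumors of a group was large for most members. The pooled within-group SD of log2(CPM + 0.5) was 1.60 for Mcpt4, 1.55 for Tpsb2, 1.42 for Tpsab1, 1.38 for Cma1 and 1.31 for Cpa3, against a median of 0.50 over all genes tested. Between 95.2% and 98.2% of genes had a smaller SD than these. Without both replicates 7 the proteases remained at 0.88 to 1.19, above 93.9% to 97.8% of genes. Gata2 went from 1.69 to 0.37 and Kit from 1.02 to 0.51.

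The 5 proteases ranked the tumors in much the same order. Spearman's rho between pairs of them ran from 0.785 to 0.95 over 16 tumors and from 0.679 to 0.925 over the 14 tumors without both replicates 7. The closest pair was the tryptases. Fcer1a had rho of 0.741 to 0.862 with the proteases. Kit had 0.600 to 0.785 and Gata2 0.541 to 0.75, while Hdc had -0.0676 to 0.321. Ms4a2 had 0.448 to 0.669, at counts that are mostly 0 to 3. With the replicates 7 left out, Ms4a2 with the proteases ran from 0.165 to 0.499, Kit with the proteases ran from 0.407 to 0.684 and Gata2 from 0.319 to 0.631.

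**Figure D3:**
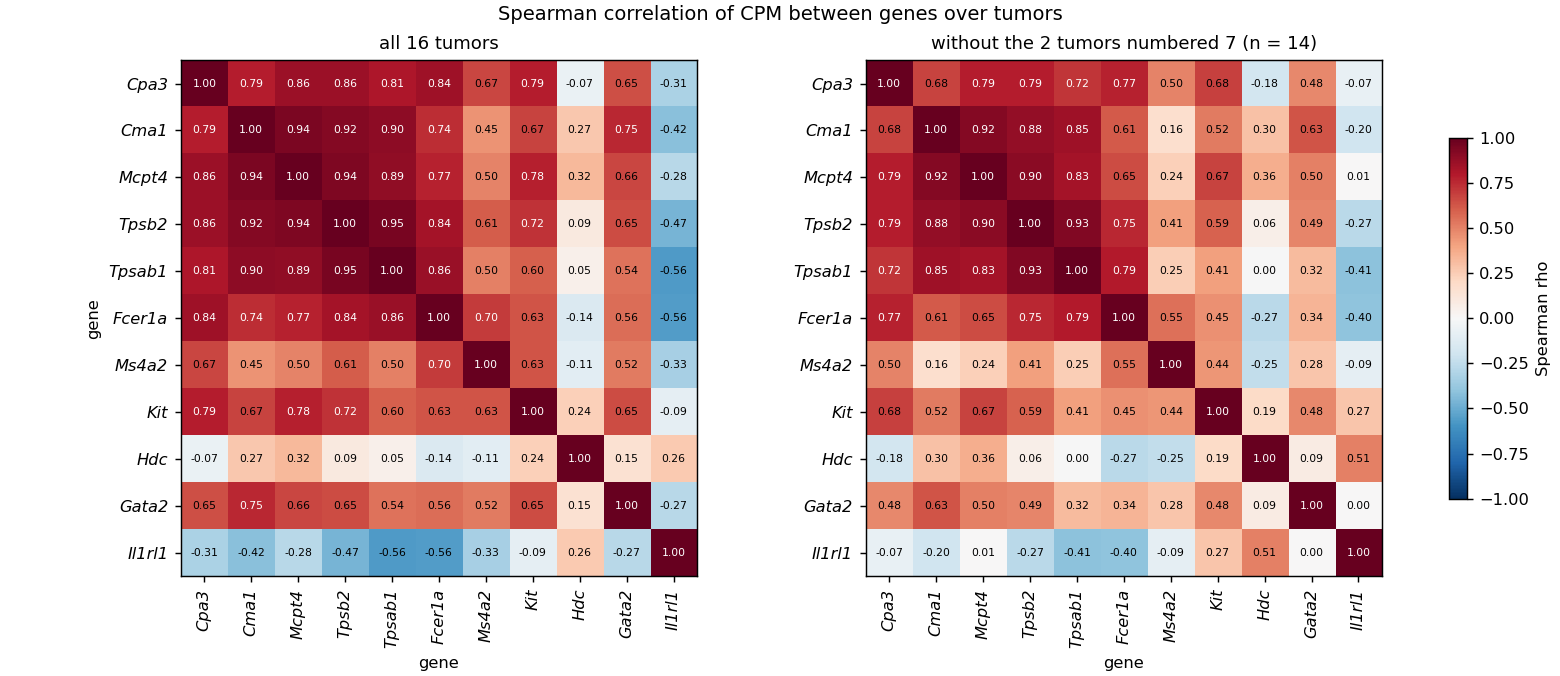
Spearman's rho of CPM between the 10 genes and Il1rl1, over all 16 tumors on the left and over 14 tumors without both replicates 7 on the right; red is positive and blue negative. The block of 5 proteases stays between 0.679 and 0.925 on the right, and Hdc lies between -0.182 and 0.363 with these 5 there.

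How the tumors ranked by Cpa3 was compared over all genes. Measured against Cpa3 by Spearman's rho on CPM, with permutation p-values adjusted over all genes, 6 of the 9 other members passed an adjusted p under 0.05 in the positive direction, beside 11.5% of all genes, and 1.06% of all genes passed in the negative direction. With CPM scaled by TMM factors the same 6 members passed, beside 3.91% of all genes positive and 3.29% negative. On total counts these were Mcpt4 and Tpsb2 (rho of 0.859 each), Fcer1a (0.844), Tpsab1 (0.812), Cma1 and Kit (0.785 each), with permutation adjusted p-values from 0.00287 to 0.0105. By Pearson's r of log2(CPM + 0.5), 5 members stood among the 23 genes closest to Cpa3 of 16816, namely Tpsb2 (r = 0.911, rank 4), Fcer1a (0.906, rank 5), Mcpt4 (0.904, rank 6), Tpsab1 (0.898, rank 10) and Cma1 (0.877, rank 23). Hdc had r = 0.191 and rho = -0.0676. With both replicates 7 left out, which are also the tumors farthest from the median of Cpa3, r stayed at 0.684 to 0.80 for the other proteases and was 0.78 for Fcer1a, with ranks from 606 to 1924 of 16558. There 4 of 9 members passed by rho, Fcer1a, Mcpt4, Tpsab1 and Tpsb2, again beside 11.5% of all genes. Among vehicle tumors alone 0 of 9 members passed, beside 0.814% of genes, and among IL-33 tumors alone 3 of 9 did, Cma1, Kit and Mcpt4, beside 2.31% of genes.

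Several genes outside the set ranked the tumors like the set as a whole. The mean standardized profile of the 10 members had its highest rho, among 13955 genes with a mean of at least 0.5 CPM, with Exoc3l2 and Ppif (0.956 each), Maz and Polr1e (0.941 each) and Szrd1 (0.938). Their levels varied less than those of the proteases, with Maz at 110 to 198 CPM and Szrd1 at 122 to 164 CPM, except for Exoc3l2 at 1.41 to 30.3 CPM. Ppif encodes a mitochondrial cyclophilin, Polr1e an RNA polymerase I subunit and Maz a zinc finger factor.

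Il1rl1 was far above every member in nearly all tumors. Its median was 95.6 CPM per kilobase, against 2.01 for Hdc. Over vehicle tumors the median was 618 CPM (489 to 1318) and over IL-33 tumors 679 CPM (37.1 to 905). The groups overlapped and the log2 fold change was -0.33 ± 0.42 (edgeR adjusted p = 0.838). IL-33 replicate 7 was the lowest, at 37.1 CPM, and the next lowest tumor was at 395 CPM. The counts do not separate the membrane form of the receptor from the soluble form, since both come from this gene.

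Per kilobase, Il1rl1 exceeded Cpa3 by a median of 101-fold over the 16 tumors and Mcpt4 by a median of 52.9-fold over the 15 with a count. In IL-33 replicate 7 the order was turned for 7 of the 10 members. There Il1rl1 was at 0.968 times the level of Cpa3 per kilobase, 0.507 times that of Cma1, 0.244 times that of Hdc and 0.236 times that of Gata2. Kit, Fcer1a and Ms4a2 remained below Il1rl1, Kit by 1.16-fold. In the other 15 tumors Il1rl1 was above every member, by 3.25-fold at the least, for Mcpt4 in vehicle replicate 7.

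No member rose with Il1rl1 across the 16 tumors at an unadjusted permutation p under 0.05, beside 3.54% of all genes. Spearman's rho with Il1rl1 was negative for 9 of 10 members, and 2 had an unadjusted permutation p under 0.05 in that direction, Tpsab1 (rho = -0.565, p = 0.0254) and Fcer1a (rho = -0.556, p = 0.0282), beside 5.86% of all genes. Pearson's r was -0.484 for Tpsab1 (permutation p = 0.0636) and -0.474 for Fcer1a (permutation p = 0.0682), and no gene of 16816 had an adjusted p under 0.05 by either measure. IL-33 replicate 7 and vehicle replicate 2 were the tumors farthest from the median of Il1rl1. Without them rho was -0.560 for Fcer1a (permutation p = 0.0398) and -0.477 for Tpsab1 (permutation p = 0.0867). Fcer1a was the 1 member past the unadjusted threshold there by rho, beside 509 of 16546 genes negative. Pearson's r was -0.449 for Tpsab1 and -0.50 for Fcer1a in that setting. With CPM scaled by TMM factors 4 members passed in the negative direction by rho, Cpa3, Fcer1a, Tpsab1 and Tpsb2, beside 5.21% of all genes.

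By Pearson's r the strongest member was Gata2, at -0.891, and it fell to -0.145 without IL-33 replicate 7. Kit went from -0.754 to 0.140. Along with Cma1, these were 3 of 10 members with a negative r past the unadjusted threshold, beside 25.0% of all genes. Without IL-33 replicate 7 the member with an unadjusted p under 0.05 by rho was Hdc, which rose with Il1rl1 (rho = 0.529, permutation p = 0.0444, n = 15), beside 3.45% of all genes, and its permutation adjusted p was 0.743. By Pearson's r Hdc was at 0.587 (permutation p = 0.022), beside 2.2% of all genes. Without both replicates 7 rho ran from -0.407 to 0.508 over the members, and 0 of 10 had a permutation p under 0.05 by rho, beside 3.32% of genes positive and 2.28% negative. By Pearson's r 1 member passed there, again Hdc (r = 0.578, permutation p = 0.030, permutation adjusted p = 0.712, n = 14), beside 2.26% of genes positive. Within the vehicle group rho was -0.690 for Tpsab1 and -0.429 for Fcer1a, and among IL-33 tumors -0.238 and -0.452, and none of these rho values had an exact permutation p under 0.05. By Pearson's r Fcer1a was at -0.656 among the IL-33 tumors (exact permutation p = 0.0287, adjusted permutation p = 0.223 over 16807 genes).

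**Figure D4:**
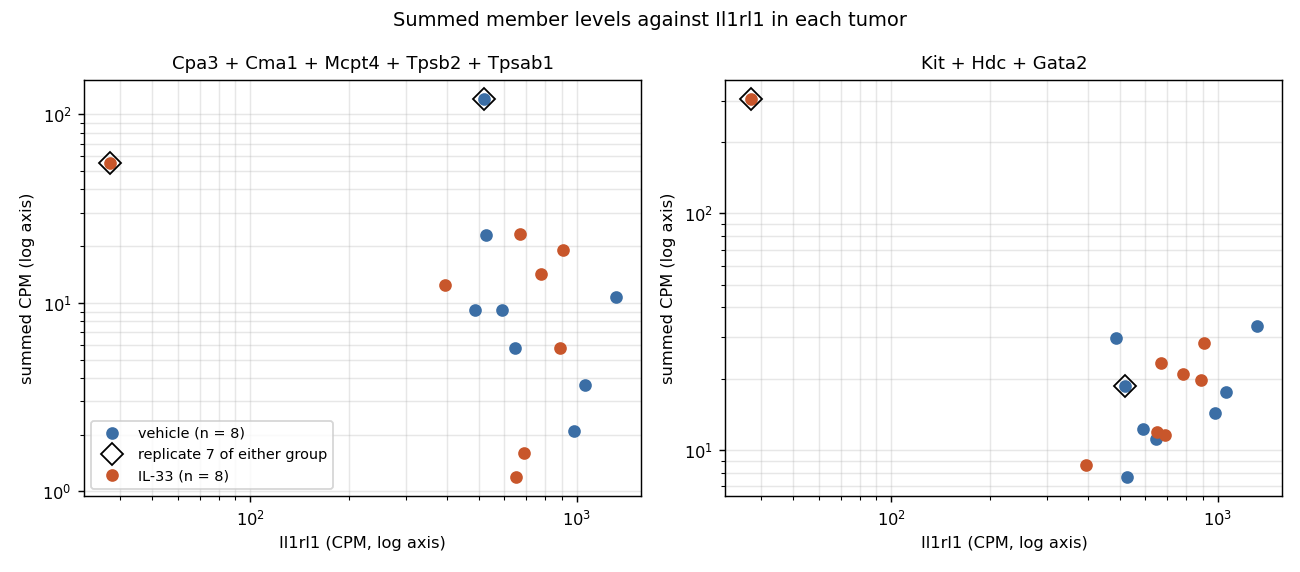
Summed CPM of the 5 proteases (left) and of Kit, Hdc and Gata2 (right) against the CPM of Il1rl1 in each tumor, both axes logarithmic; blue is vehicle, orange is IL-33 and open diamonds mark replicate 7 of each group. IL-33 replicate 7 lies alone at 37.1 CPM of Il1rl1, while the other 15 tumors lie between 395 and 1318.

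Other genes of these cells were examined as lists. Of 15 further granule and mediator genes 12 were tested, and 0 were higher and 0 lower at an unadjusted p under 0.05. The mucosal proteases Mcpt1 and Mcpt2 were found in some tumors only. Mcpt1 had 54 counts in vehicle replicate 7, 25 in vehicle replicate 2, 26, 15 and 8 in IL-33 replicates 8, 4 and 3, 1 in vehicle replicate 3 and none elsewhere. In IL-33 replicate 7, where Mcpt4 had 139 counts, Mcpt1 had none and Mcpt2 had 5. Tpsg1, a membrane-bound tryptase, had 5 counts in the vehicle tumor of that number, 2 in the IL-33 tumor and none elsewhere. Slc18a2, the vesicular monoamine transporter that loads histamine into granules, was at 29.6 CPM in IL-33 replicate 7 and at 1.03 to 4.00 CPM in the other 15 tumors. Srgn, the core protein that holds granule contents, had medians of 46.6 CPM (28.0 to 105, vehicle) and 84.6 CPM (37.3 to 116, IL-33), and the groups overlapped.

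Of 12 genes of FcεRI signaling, 0 passed in either direction. Fcer1g, the γ chain shared with other Fc receptors and widely expressed in macrophages, was at medians of 75.2 and 84.7 CPM. Without vehicle replicate 7, the phosphatase Inpp5d (log2 fold change 0.43, SE 0.20) and the kinase Syk (0.83, SE 0.33) were higher at an unadjusted p under 0.05, and both had an edgeR adjusted p of 0.437, as 2 of 12 genes beside 10.1% of all genes. Without both replicates 7 the same held for the kinases Lyn (log2 fold change 0.65, SE 0.29) and Syk (0.83, SE 0.35), at an edgeR adjusted p of 0.892, beside 3.06% of all genes. Of 12 receptors, 8 transcription factors and 5 of 6 histamine receptors and enzymes that were tested, 0 passed in either direction over all 16 tumors. Without vehicle replicate 7 the receptor gene Cd200r3 was higher (log2 fold change 2.21, SE 0.98, edgeR adjusted p = 0.437). Without both replicates 7 the transcription factor Ikzf1 was higher (0.98, SE 0.42, edgeR adjusted p = 0.892). Both calls were at an unadjusted p under 0.05. Mrgprb2, the receptor of connective tissue mast cells for basic peptides, had 12 counts in vehicle replicate 7, 8 in IL-33 replicate 7 and at most 5 elsewhere, and the related Mrgprb1 had 39, 37 and at most 11.

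Of the growth factors, Kitl, the ligand of Kit, had medians of 101 CPM (vehicle) and 83.7 CPM (IL-33). Il3 and Il9 had no count in any tumor. Of 4 ligands tested, 0 passed in either direction.

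Of the basophil list, Mcpt8, Prss34 and Cd200r3 were scarce. The summed CPM of its 7 genes was 41.4 to 93.8 over vehicle tumors and 70.1 to 110 over IL-33 tumors. Nearly all of this came from the other genes of the list, which are not named here. Mcpt8, the basophil protease, had 18 counts in vehicle replicate 7 and at most 8 in any other tumor. Its log2 fold change was -1.80 ± 0.81 (edgeR adjusted p = 0.424). It was past the unadjusted threshold, as 1 of 5 basophil genes tested beside 1.17% of all genes lower, and was not past it without vehicle replicate 7, at -1.17 ± 0.78. Prss34, another basophil protease, had 2 counts over all tumors. Cd200r3, carried by both cell types, had at most 3 counts in a tumor, and without vehicle replicate 7, where 10.1% of all genes were higher, it was the 1 basophil gene past the unadjusted threshold, in the higher direction. The basophil share of Fcer1a, Ms4a2 and Hdc counts cannot be told apart from the mast cell share in these data.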

How the data were processed

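RNA had been selected by poly(A), fragmented and sequenced from 16 tumors. Per the labels, the deposited counts are raw read counts per gene, and the submitters' processing notes name HISAT2, featureCounts and mm10. Tool versions, the annotation and the strand setting are not given in the sources used here. The 22298 genes of each file were joined by gene identifier and then given symbols, and no per-sample column was left unused (0). Groups were taken from the treatment labels.

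A gene needed 10 counts summed over tumors to be tested, with edgeR 4.0.16 (quasi-likelihood, TMM factors, 16817 genes) in R 4.3.3, with Benjamini-Hochberg adjustment. DESeq2 1.42.0, limma 3.58.1 (voom with quality weights), upper quartile scaling, total counts, other filters, a replicate block and each tumor left out in turn were alternatives. The fit had been run on simulated counts with known changes, at the spread of these tumors and at a lower spread. A minimum recovery was required at the lower spread only. The simulation therefore does not show what the fit could detect for members with a large spread. The SE given with edgeR values is the absolute log2 fold change divided by the square root of the F statistic. It is approximate and was not estimated by the fit itself. CPM used total counts, and a pseudocount of 0.5 was added before logs. Correlations used 100000 permutations, or all pairings of 8 tumors within a group. Intervals are exact binomial at the 95% level, and 3 counts were taken as what a count of 0 allows; both cover counting error only. Precision is set by these totals, 14139268 counts at the least. Levels per length used exon lengths of GENCODE on GRCm38, and upstream sequence came from RefSeq on GRCm38.p6.

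The members and all gene lists were chosen with earlier results of these data known. Named were the 10 members, Il1rl1, genes of the immune cell lists past an unadjusted p under 0.05 or defining their list, and the 5 genes ranking tumors most like the members; list genes given by counts alone or called in an alternative were chosen after their values were seen. Of the lists of other tissues, 15 of 15 female tract, 2 of 9 mesothelial and fat, 5 of 7 epithelial and 0 of 7 endothelial genes were past that threshold, all higher, and most are not named. The anchor Cpa3 and the removal of both replicates 7 were chosen after seeing the data.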

Additional observations from a re-analysis of the deposited data

Results flagged for a closer look

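In each group of 8 tumors the gap between the most extreme tumor and its nearest neighbor, divided by the range, was set against Dixon's 95% critical value for 8 values. Of 22 sets of 8 values, those of the 10 members and Il1rl1 in both groups, 15 were past it. All of them belonged to members. The critical value assumes normally distributed values, whereas CPM without logs were used, so no chance rate is given. The share of all genes past it was not computed, and IL-33 replicate 7 was the highest tumor for 43.0% of all genes. The 15 are not independent, since they came from 2 tumors. In vehicle replicate 7 they were Cpa3 at 15.7 CPM, Cma1 at 17.4 CPM, Mcpt4 at 25.6 CPM, Tpsb2 at 28.6 CPM, Tpsab1 at 33.8 CPM, Fcer1a at 2.86 CPM, Ms4a2 at 0.572 CPM and Gata2 at 3.60 CPM. In IL-33 replicate 7 they were Kit at 41.2 CPM, Cpa3 at 8.43 CPM, Cma1 at 11.6 CPM, Tpsb2 at 13.3 CPM, Ms4a2 at 0.285 CPM, Hdc at 141 CPM and Gata2 at 123 CPM. Cpa3, Cma1, Tpsb2, Ms4a2 and Gata2 were past the critical value in both groups. Mcpt4, Tpsab1 and Fcer1a were past it among vehicle tumors and not among IL-33 tumors, and Kit and Hdc the other way round; the difference between groups was not tested.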

How the results depend on the processing

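At an unadjusted p under 0.05, the counts of all genes higher and lower moved from 1680 and 196 to 424 higher with DESeq2, 101 lower with total counts alone, 498 higher with filterByExpr, 516 and 452 with limma voom, and 481 and 373 without both replicates 7. Members went from 2 higher and 0 lower to 0 higher and 1 lower with DESeq2, and to 0 higher with limma voom and without both replicates 7. Leaving out 1 tumor gave 289 to 1902 genes higher, 111 to 362 lower, 0 to 2 members higher, 0 to 1 lower, and a ratio of the summed member CPM, IL-33 over vehicle, of 0.697 to 2.58 (1.69 over all tumors, 1.06 without both replicates 7). IL-33 replicate 7 gave 289, 362 and 0.697, vehicle replicate 7 gave 2.58, and 111, 307 and 126 genes were lower without vehicle replicate 4, IL-33 replicate 3 and IL-33 replicate 5.

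Fitted log2 fold changes reversed with DESeq2 for Tpsb2 (0.54), Hdc (-0.24) and Gata2 (-0.77), with limma voom for Cpa3 (0.13), Mcpt4 (0.40), Tpsab1 (0.22) and Gata2 (-0.66), and without both replicates 7 for Cpa3 (0.45), Mcpt4 (0.87), Tpsab1 (0.01), Hdc (-0.28) and Gata2 (-0.55). Leaving out 1 tumor gave -1.35 to 0.58 for Cma1, -0.76 to 0.91 for Cpa3, -0.88 to 0.29 for Fcer1a, -0.80 to 3.30 for Gata2, -0.19 to 1.18 for Hdc, -0.84 to 1.14 for Mcpt4, -1.0 to 0.36 for Tpsab1 and -1.50 to 0.52 for Tpsb2. The lower end was the removal of IL-33 replicate 7 and the upper end that of vehicle replicate 7, except for Hdc, whose upper end was that of vehicle replicate 4. Differences of mean log2(CPM + 0.5) without both replicates 7 were 0.07 for Tpsab1 and -0.35 for Gata2. They spanned -0.57 to 0.22 for Cma1, -0.0856 to 0.61 for Cpa3, -0.27 to 0.13 for Fcer1a, -0.51 to 0.49 for Gata2, -0.0857 to 0.69 for Mcpt4, -0.37 to 0.34 for Tpsab1 and -0.57 to 0.27 for Tpsb2 with 1 tumor left out. Each removal leaves fewer tumors; otherwise the cause was not tested.

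The count of members related to Il1rl1 by rho at an unadjusted p under 0.05 was 2, both negative, beside 5.86% of all genes negative. With TMM-scaled CPM it was 4, all negative, beside 5.21%. Without IL-33 replicate 7 it was 1, Hdc in the positive direction, beside 3.45% of all genes positive. Without IL-33 replicate 7 and vehicle replicate 2 it was 1, Fcer1a, negative, beside 509 of 16546 genes negative. Without both replicates 7 it was 0. Members related to Cpa3 by rho at an adjusted p under 0.05, all positive, were 6, beside 11.5% of all genes. They went to 0 within vehicle tumors, beside 0.814%, and to 3 within IL-33 tumors, beside 2.31%. These groups hold 8 tumors each.

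Whether replicate numbers pair the tumors was not tested. The r between the deviations of same-numbered tumors was -0.338 to 0.373, and 3 of 8 pairs were over 0.1. Of 16 tumors, 4 correlated best with their own number, namely replicates 5 (r = 0.327) and 6 (r = 0.373) of both groups. With the replicate block 246 genes were higher, 72 lower and 0 members higher, Cpa3 was at 0.17 and Gata2 at -0.15.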

Other observations

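Granulocyte genes outside the mast cell set were followed as lists. Prg2, the eosinophil major basic protein, had 0 to 3 counts in vehicle tumors and 28, 23, 22, 12 and 5 counts in IL-33 replicates 7, 4, 8, 5 and 3, with 0 in the other 3. Its log2 fold change was 2.87 ± 1.11 (edgeR adjusted p = 0.418), and it was past an unadjusted p under 0.05 as 1 of 6 eosinophil genes tested, beside 9.99% of all genes higher. It stayed past that threshold without IL-33 replicate 7, at 2.55 ± 0.99, beside 1.83% of all genes higher. The same held without both replicates 7, at 2.84 ± 1.08, beside 3.06%. The lowest edgeR adjusted p of any gene was 0.964 and 0.892 in these settings. Epx, the eosinophil peroxidase, had 4 counts in all, in IL-33 replicate 4. The median log2 fold change of the 6 eosinophil genes tested was -0.36 over all tumors, beside 0.06 for all genes tested. It was -0.96 without IL-33 replicate 7, 0.04 without vehicle replicate 7 and -0.17 without both. The summed CPM of the list had medians of 2.03 (0.939 to 8.06, vehicle) and 3.45 (0.818 to 9.46, IL-33), and the groups overlapped.

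Camp, the cathelicidin of neutrophil granules, had 0 to 8 counts in vehicle tumors and 0 to 55 in IL-33 tumors. Its log2 fold change was 2.78 ± 1.09 (edgeR adjusted p = 0.418), past the unadjusted threshold as 1 of 8 neutrophil genes tested, beside 9.99% of all genes higher. It was short of that threshold without both replicates 7, at 2.01 ± 0.96. S100a9, another neutrophil gene, was at -1.32 ± 0.67 over all 16 tumors, short of the threshold. Without vehicle replicate 7 it was past it as lower, at -1.49 ± 0.66 (edgeR adjusted p = 0.437), beside 1.34% of all genes lower. Without vehicle replicate 4 it was at 0.09 ± 0.37.

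Of 8 genes of type 2 innate lymphoid and regulatory T cells that were tested, 0 were past the unadjusted threshold with edgeR over all 16 tumors. Il7r, the interleukin-7 receptor chain, was at 0.78 ± 0.38 (edgeR adjusted p = 0.467). It was past the unadjusted threshold as higher with DESeq2 over the same tumors, at 0.79 ± 0.36, beside 2.52% of all genes higher. With edgeR it was past it without IL-33 replicate 7, at 0.77 ± 0.36, beside 1.83%. The same held without vehicle replicate 7, at 0.94 ± 0.39, beside 10.1%, and without both, at 0.92 ± 0.36, beside 3.06%. In each of these settings it was the 1 gene past the threshold of the 8 tested.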
